A study of Mus musculus with 6 samples.

Results

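The genes described here encode the machinery of regulated exocytosis: SNARE proteins, Munc18 proteins, synaptotagmins, the granuphilin (synaptotagmin-like) family, RIM and Munc13 proteins, Rab3 and Rab27 GTPases with their effectors, complexins, priming factors and a pair of granule phosphatase-like proteins. They were chosen by name from these families, 55 genes in all, and all 55 were found among the 46932 gene symbols used. Their RNA was measured in 6 RNA-seq libraries of sorted adult mouse islet cells, 2 libraries for each of 3 populations, 1 from pooled males and 1 from pooled females (10 to 12 animals a pool). All animals carried 3 alleles: mIns1-H2b-mCherry, a nuclear red reporter under an insulin promoter; Sst-cre, a recombinase under the somatostatin promoter; and a floxed YFP allele, which this Cre switches on for good. Beta cells were sorted as mCherry-positive and delta cells as YFP-positive. Cells with both colours are called transdifferentiated in the labels, a name kept here. The 2 colours alone do not show a change of identity. Before sorting, islets spent a night in culture with 5.5 mM glucose. The series text names alpha cells in one phrase and bitransgenic females in another; delta cells and both sexes are named in the labels and title, which were followed here. The question is how the secretory machinery of the cells labelled transdifferentiated compares with that of the 2 other populations.

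Hormone granules leave an endocrine cell when a SNARE protein on the granule (a VAMP) zips together with SNAREs of the plasma membrane (a syntaxin and a SNAP protein). Rab3 and Rab27 and their effectors, among them the granuphilins and RIM proteins, bring granules to the membrane. Munc13 and CAPS proteins prime them, and Munc18 proteins chaperone the syntaxins. Those synaptotagmins that bind calcium couple fusion to calcium entry, while other members of the family do not bind it. Complexins hold the partly zipped complex ready. Granuphilin (Sytl4) was described as a protein of insulin granules, and beta and delta cells are both electrically excitable cells that secrete on calcium entry.

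Levels are RPKM (reads per kilobase of gene, scaled to library depth), so that levels of different genes can be compared per length. The depth worked out from whole-read steps is the denominator of the RPKM, and whether it includes a normalization factor is not given. In units of 1e6 reads with the male pool first, it was 21.6 and 20.5 in beta, 12.5 and 10.9 in transdifferentiated and 17.0 and 15.7 in delta cells. Summed marker genes followed the sorts. The 8 beta markers, mostly Ins1 and Ins2, summed to 222006 to 310284 RPKM in beta, 86504 to 94495 in transdifferentiated and 1501 to 1831 in delta libraries. The 5 delta markers, mostly Sst outside beta libraries, summed to 79.7 to 96.6, 13507 to 13590 and 51785 to 60684. Single markers could differ far less: Pdx1 was at 77.2 and 106 in beta, 61.4 and 82.0 in transdifferentiated and 59.9 and 64.6 in delta libraries. The delta libraries also held alpha-cell markers (14602 to 15876 for 5 genes, against 1629 to 2378 in transdifferentiated and 240 to 429 in beta libraries). PP-cell hormones (2 genes) summed to 36498 to 37076 in delta, 11877 to 12041 in transdifferentiated and 558 to 802 in beta libraries. Any delta or transdifferentiated value below can therefore include other YFP-positive cells. Acinar markers were uneven between pools, at 7171 in the male and 272 in the female beta library, 1855 and 135 in the transdifferentiated and 637 and 487 in the delta libraries. The 6 macrophage markers summed to 80.0 and 96.4 RPKM in beta, 44.3 and 45.6 in transdifferentiated and 73.4 and 87.9 in delta libraries; C1qa, the most abundant, was highest in delta cells (59.3 and 76.9), while Lyz2 was at 5.82 and 7.99 in beta and at 0.145 or less in the other libraries. The part of these other cells in the results was not tested, and fewer cells of a kind and less RNA per cell cannot be told apart in such libraries.

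Of the 55 genes, 45 reached 1 RPKM in at least 2 libraries and were tested, and 10 did not. Among those tested, 38 reached 1 RPKM in all 3 populations, 6 in 2 of them and 1, Sytl2, in delta cells alone. These last 7 (Sytl2, Sytl4, Syt1, Syt6, Syt16, Syt17 and Rab3c) passed the filter through the populations where they are high. Their differences from the population below 1 RPKM are counted below but are not independent of that filter. Values were compared as log2(RPKM + 1) with limma, in 1 fit over all 6 libraries with Benjamini-Hochberg adjustment over 13022 genes, and a gene is said to differ where the adjusted p is under 0.05. Between beta and delta cells 30 of the 45 differed, 8 higher and 22 lower in beta cells, where 57.9% of all genes tested differed (11.7% higher and 46.3% lower). Between transdifferentiated and delta cells 14 differed, 5 higher and 9 lower, where the share over all genes was 12.7% (5.53% higher and 7.2% lower). Between transdifferentiated and beta cells 28 differed, 21 higher and 7 lower, where the share was 51% (42.5% higher and 8.46% lower). With a pseudocount of 0.1 the 9 lower genes against delta cells became 4, while those over all genes went from 937 to 645. The 9 also became fewer without any 1 transdifferentiated or delta library, as did the genes passing over all genes. The 21 and 7 against beta cells likewise became fewer without transdifferentiated replicate 1, again as over all genes. With the pool (male or female) as a block, called the blocked fit below, the counts were 10 higher and 25 lower in beta against delta cells (60.6% of all genes, 12.7% higher and 47.9% lower), 5 and 11 in transdifferentiated against delta cells (14.8%, 6.5% and 8.28%), and 22 and 8 in transdifferentiated against beta cells (53.9%, 44.1% and 9.78%). The median log2 fold change of the 45 genes was -0.41, -0.12 and 0.30 in the 3 comparisons, beside -0.36, -0.03 and 0.32 over all genes tested. Each p-value rests on how far the male and female libraries of a group lie apart, pooled over the 3 groups. This spread is drawn toward a trend over all genes tested, and in it sex and replicate differences cannot be told apart. In each comparison, none of the differing genes had overlapping libraries or opposite signs in the 2 pools. With 2 libraries a group, a call at this threshold nearly ensures both, so they add no support to the calls. The share over all genes was not worked out.

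Much of the tilt toward low values in beta cells moved with the scale. After median-of-ratios scaling the median over all genes in the beta to delta comparison went from -0.36 to 0.02. The exocytosis genes then split 14 higher and 15 lower in beta against delta cells (29.8% and 28.1% of all genes), and 11 higher and 14 lower in transdifferentiated against beta cells (25.5% and 29.6%), while the split against delta cells was 5 and 8 (5.63% and 6.69%). Ratios between genes of the same library, which no scaling of a library alters, are given beside the levels.

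**Figure D1:**
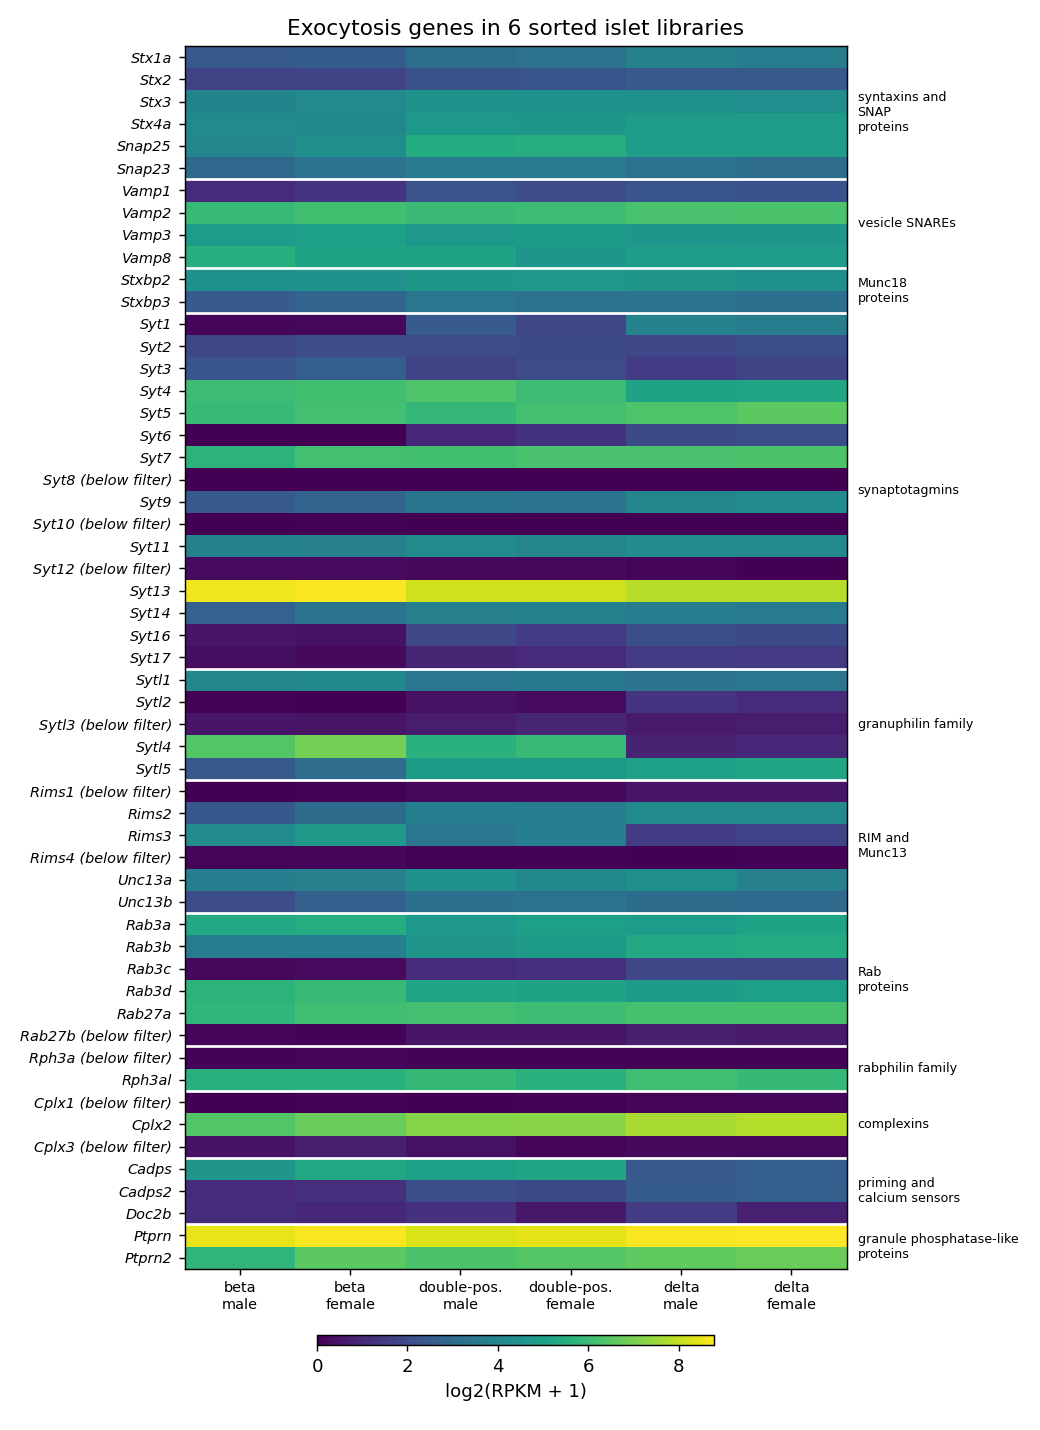
Levels of the 55 exocytosis genes, as log2(RPKM + 1) by colour, with genes in rows grouped by role and the 6 libraries in columns. Syt13 and Ptprn form the brightest rows in every library. Sytl4 and Rims3 darken and Syt1 and Sytl5 brighten from beta (left) to delta (right); the 10 genes marked as below the filter stay dark throughout.

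The granuphilin family, Rab27 effectors that tether granules to the plasma membrane, showed the widest contrast. Sytl4 (granuphilin, chromosome X, 133936385 to 133981812, GRCm38, minus strand) was at 84.7 and 123 RPKM in the male and female beta libraries, 47.6 and 60.1 RPKM in the transdifferentiated ones, and 0.805 and 0.983 RPKM in the delta ones. The 3 populations did not overlap, with beta cells highest and delta cells lowest. Mean levels were 104 ± 27.0 (SD, n = 2), 53.8 ± 8.84 and 0.894 ± 0.126 RPKM. Transdifferentiated cells held 60.2 times the delta level and 0.518 times the beta level. On the log2(RPKM + 1) scale the fold change was 5.77 for beta against delta (SE 0.20, adjusted p = 7.94e-06), 4.85 for transdifferentiated against delta (SE 0.20, adjusted p = 1.31e-04) and -0.92 for transdifferentiated against beta (SE 0.20, adjusted p = 0.0093). The last was lost (adjusted p = 0.068) without transdifferentiated replicate 1. The delta values rest on about 70 and 79 reads.

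Its paralogue Sytl5, another Rab27-binding member, ran the other way. Sytl5 (chromosome X, 9885622 to 9994543, plus strand) was at 4.51 and 7.75 RPKM in beta, 26.3 and 27.0 RPKM in transdifferentiated and 30.8 and 35.5 RPKM in delta libraries. The transdifferentiated libraries lay beside the delta ones and well above the beta ones: the log2 fold change was 1.99 against beta (SE 0.21, adjusted p = 7.05e-04) and -0.30 against delta cells (SE 0.21, adjusted p = 0.43, 95% interval -0.81 to 0.21), where beta against delta gave -2.29 (SE 0.21, adjusted p = 2.45e-04). The bulk values do not show whether single cells held both genes. The ratio of Sytl4 to Sytl5 RPKM was 18.8 and 15.9 in beta, 1.81 and 2.23 in transdifferentiated and 0.0261 and 0.0277 in delta libraries. As shares of the summed RPKM of the 5 family genes, Sytl4 made up 81.9 ± 2.16%, 58.5 ± 3.22% and 1.96 ± 0.123% in beta, transdifferentiated and delta cells, and Sytl5 4.77 ± 0.692%, 29.2 ± 2.71% and 73.0 ± 1.54% (SD, n = 2).

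The other granuphilin-family genes differed less. Sytl1, a Rab27 effector known from secretory and blood cells, was at 15.7 and 16.3 RPKM in beta, 9.82 and 10.7 RPKM in transdifferentiated and 9.15 and 9.80 RPKM in delta libraries. It was higher in beta than in delta cells by 0.70 (SE 0.11, adjusted p = 0.0018) and lower in transdifferentiated than in beta cells, at -0.60 (SE 0.11, adjusted p = 0.0045). Sytl2 was low everywhere, at 0.0269 and 0.00710 RPKM in beta, 0.301 and 0.200 RPKM in transdifferentiated and 1.56 and 1.07 RPKM in delta libraries. Sytl2 was tested only because its delta libraries reached 1 RPKM, so its calls against delta cells are not independent of the filter. It was lower than in delta cells by -1.18 in beta (SE 0.16, adjusted p = 0.0011) and by -0.88 in transdifferentiated cells (SE 0.16, adjusted p = 0.016). The second of these missed the threshold without either transdifferentiated replicate (adjusted p = 0.053 and 0.079), without delta replicate 1 (0.062) and with a pseudocount of 0.1 (0.053). Transdifferentiated against beta did not pass for Sytl2 (0.30, adjusted p = 0.16), except with a pseudocount of 0.1 (1.57, adjusted p = 0.035).

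Among RIM and Munc13 genes, the same kind of exchange was seen for RIM proteins, the Rab3-binding organisers of release sites. Rims3, which encodes a short RIM that lacks the Rab-binding end (chromosome 4, 120854816 to 120896579, plus strand), was at 18.0 and 25.7 RPKM in beta, 9.91 and 12.9 RPKM in transdifferentiated and 1.97 and 2.37 RPKM in delta libraries. The populations were again ordered without overlap. The log2 fold change was 2.83 for beta against delta (SE 0.20, adjusted p = 8.51e-05), 1.96 for transdifferentiated against delta (SE 0.20, adjusted p = 0.0022) and -0.87 for transdifferentiated against beta (SE 0.20, adjusted p = 0.011). The last was lost (adjusted p = 0.080) without transdifferentiated replicate 1. Rims2, a long RIM (chromosome 15, 39198261 to 39684372, plus strand), was at 4.31 and 7.63 RPKM in beta, 13.03 and 12.3 RPKM in transdifferentiated and 17.1 and 16.4 RPKM in delta libraries. It was lower in beta than in delta cells (-1.39, SE 0.22, adjusted p = 0.0019) and higher in transdifferentiated than in beta cells (1.011, SE 0.22, adjusted p = 0.0089, and 0.059 without transdifferentiated replicate 1). Against delta cells the difference of -0.38 had an adjusted p of 0.33 (95% interval -0.90 to 0.14) and passed without beta replicate 1 or 2 (0.036 and 0.037). Beta libraries enter that comparison only through the pooled spread. Rims3 made up 78.5 ± 2.45% of the summed RIM RPKM in beta, 46.8 ± 5.71% in transdifferentiated and 11.2 ± 1.53% in delta cells.

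The Munc13 priming proteins were more even. Unc13a (Munc13-1) was at 12.5 and 13.1 RPKM in beta, 20.9 and 16.1 RPKM in transdifferentiated and 20.0 and 13.2 RPKM in delta libraries. The male library stood above the female one in both of the last populations. Unc13a passed in none of the 3 comparisons (adjusted p = 0.22, 0.68 and 0.088), except for transdifferentiated against beta cells in the blocked fit (0.49, adjusted p = 0.040). Unc13b (Munc13-2) was at 3.26 and 5.43 RPKM in beta, 8.18 and 8.75 RPKM in transdifferentiated and 7.68 and 6.99 RPKM in delta libraries. It was lower in beta than in delta cells (-0.67, SE 0.20, adjusted p = 0.024) and higher in transdifferentiated than in beta cells (0.85, SE 0.20, adjusted p = 0.011). After scaling neither held (adjusted p = 0.22 and 0.062). The first was also lost without either delta replicate (0.12 and 0.070) and with no filter (0.073), and the second without either transdifferentiated replicate (0.055 and 0.063).

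**Figure D2:**
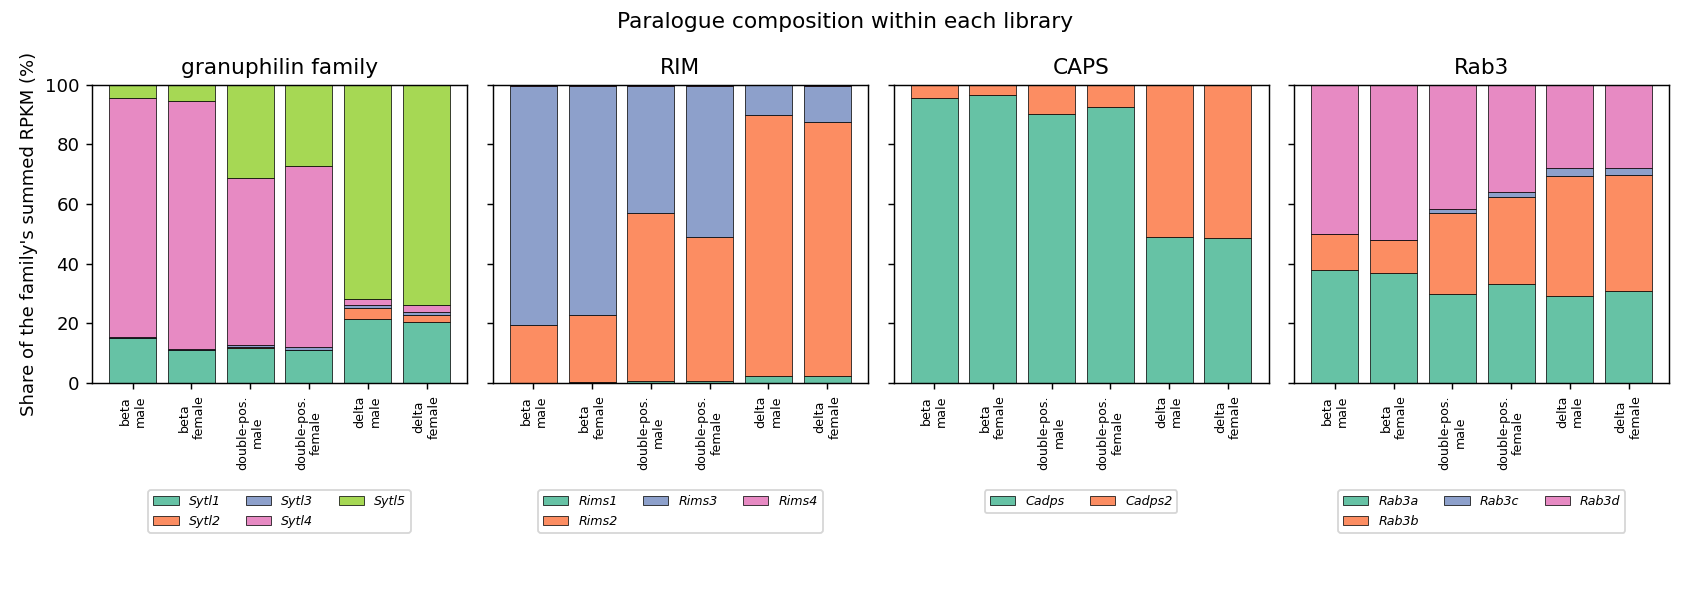
Share of each gene in the summed RPKM of its family (per cent, stacked bars from 0 to 100) in each of the 6 libraries, for the granuphilin family, RIM, CAPS and Rab3 genes. Sytl4, Rims3 and Cadps take most of their bars in beta libraries; in the transdifferentiated libraries Cadps takes 90.4% and 92.4%, Sytl4 56.2% and 60.8%, and Rims3 42.8% and 50.9%.

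CAPS proteins prime dense-core granules. Cadps (CAPS1, chromosome 14, 12372563 to 12823079, minus strand) was at 22.7 and 36.7 RPKM in beta, 30.9 and 36.2 RPKM in transdifferentiated and 4.67 and 5.10 RPKM in delta libraries. Beta and transdifferentiated libraries overlapped, and both lay above all delta libraries. The log2 fold change was 2.34 for beta against delta (SE 0.22, adjusted p = 2.43e-04) and 2.55 for transdifferentiated against delta (SE 0.22, adjusted p = 0.0013). Between transdifferentiated and beta cells it was 0.21 (SE 0.22, adjusted p = 0.46, 95% interval -0.31 to 0.73). It was -0.26 after scaling and 0.54 without beta replicate 2 (adjusted p = 0.021). Cadps2 (CAPS2) was at 1.07 and 1.29 RPKM in beta, 3.29 and 2.96 RPKM in transdifferentiated and 4.85 and 5.37 RPKM in delta libraries. Beta cells were below delta cells (-1.49, SE 0.13, adjusted p = 1.65e-04), higher in transdifferentiated than in beta cells (0.92, SE 0.13, adjusted p = 0.0016) and lower in transdifferentiated than in delta cells (-0.57, SE 0.13, adjusted p = 0.032). The last call was lost with a pseudocount of 0.1 (adjusted p = 0.056), with no filter (0.089), and without transdifferentiated replicate 1 or 2 (0.10 and 0.16) or delta replicate 1 or 2 (0.11 and 0.22). The ratio of Cadps to Cadps2 was 21.3 and 28.4 in beta, 9.39 and 12.2 in transdifferentiated and 0.963 and 0.951 in delta libraries. Doc2b, a calcium-binding C2-domain protein that binds Munc13 and SNAREs, stayed between 0.484 and 1.91 RPKM. The male library was above the female one in all 3 populations, and Doc2b passed in no comparison (adjusted p = 0.84, 0.69 and 0.69).

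Promoter sequences are shown for the 3 genes that were higher in beta and transdifferentiated than in delta cells by the widest margins (Sytl4, Rims3, Cadps) and the 3 that were lowest in beta relative to delta cells (Syt1, Sytl5, Syt6, described below). Each is the stretch of 250 bases before a start site, 5′ to 3′ on the gene's strand, from RefSeq on GRCm38.p6, and for Syt1 and Syt6, which have several starts, the most upstream start. Capitals mark letters of a motif that was searched on both strands.
Sytl4 (chrX:133981813-133982062, minus strand): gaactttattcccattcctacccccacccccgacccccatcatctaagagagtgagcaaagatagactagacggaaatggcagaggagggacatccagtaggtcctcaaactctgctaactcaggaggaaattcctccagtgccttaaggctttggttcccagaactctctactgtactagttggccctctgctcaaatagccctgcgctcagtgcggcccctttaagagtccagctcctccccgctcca
Rims3 (chr4:120854549-120854798, plus strand): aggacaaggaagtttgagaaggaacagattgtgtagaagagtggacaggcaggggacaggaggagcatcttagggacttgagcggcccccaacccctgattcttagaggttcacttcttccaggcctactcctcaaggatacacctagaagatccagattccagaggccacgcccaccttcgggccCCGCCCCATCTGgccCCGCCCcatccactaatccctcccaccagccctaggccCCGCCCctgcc
Cadps (chr14:12823080-12823329, minus strand): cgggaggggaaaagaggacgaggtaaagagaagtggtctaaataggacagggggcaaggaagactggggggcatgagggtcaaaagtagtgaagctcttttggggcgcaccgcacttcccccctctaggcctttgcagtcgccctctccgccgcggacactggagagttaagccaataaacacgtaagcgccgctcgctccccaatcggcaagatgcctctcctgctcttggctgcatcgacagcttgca
Sytl5 (chrX:9885371-9885620, plus strand): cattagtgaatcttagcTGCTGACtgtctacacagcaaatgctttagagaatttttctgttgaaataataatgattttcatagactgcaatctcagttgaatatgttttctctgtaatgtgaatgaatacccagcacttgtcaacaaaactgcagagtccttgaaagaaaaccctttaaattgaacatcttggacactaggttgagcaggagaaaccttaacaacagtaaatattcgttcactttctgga
Syt1 (chr10:109010976-109011225, minus strand): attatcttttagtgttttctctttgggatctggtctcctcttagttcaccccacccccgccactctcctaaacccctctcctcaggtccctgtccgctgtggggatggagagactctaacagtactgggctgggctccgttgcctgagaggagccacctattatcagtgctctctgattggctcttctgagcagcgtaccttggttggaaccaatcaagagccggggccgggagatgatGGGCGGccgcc
Syt6 (chr3:103574995-103575244, plus strand): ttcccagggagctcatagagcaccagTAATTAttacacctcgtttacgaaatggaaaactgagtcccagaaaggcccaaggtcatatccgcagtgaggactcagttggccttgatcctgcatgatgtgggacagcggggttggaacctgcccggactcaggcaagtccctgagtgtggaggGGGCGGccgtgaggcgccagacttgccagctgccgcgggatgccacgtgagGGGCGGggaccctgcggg
The motifs searched were the cyclic AMP response element TGACGTCA, the E-box CAGATG, a MAF recognition core TGCTGAC, the homeodomain core TAATTA, the GC box GGGCGG, the left part of the REST element TTCAGCACC and the TATA box TATAAA. None of these strings contains another. Of the 6 promoters, Rims3 held 3 GC boxes and an E-box, Syt6 2 GC boxes and a homeodomain core, Syt1 a GC box, Sytl5 a MAF core, and Sytl4 and Cadps held no match. In the table, 41 of the 55 symbols matched, with 53 promoters. The GC box was found in 58.5% of these and in 32.7% of all 32851 promoters, the E-box in 3.77% and 14.4%, the MAF core in 3.77% and 3.81%, the homeodomain core in 1.89% and 4.84%, the TATA box in 5.66% and 12.4%, and the cyclic AMP response element in 1.89% and 1.55%. The REST part was in 0.301% of all promoters and in none of the 53. The median GC content of these stretches was 59.6% for the 53 promoters and 52.4% for all, beside the higher share with a GC box. These are matches of letters and were not tested as sites.

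Synaptotagmins, the calcium sensors and granule proteins of exocytosis, were led by the same genes in every population. Syt13, a member that does not bind calcium (chromosome 2, 92915098 to 92956058, plus strand), was at 386 and 425 RPKM in beta, 285 and 283 RPKM in transdifferentiated and 229 in both delta libraries. It was higher in beta than in delta cells by 0.82 (SE 0.10, adjusted p = 8.46e-04) and lower in transdifferentiated than in beta cells, at -0.51 (SE 0.10, adjusted p = 0.0073). Against delta cells the transdifferentiated value was higher by 0.31 without passing (adjusted p = 0.12), and it passed without beta replicate 1 or 2 (0.044 and 0.048). Syt13 alone made up 64.1 ± 1.27%, 51.8 ± 0.123% and 45.9 ± 1.29% of the summed synaptotagmin RPKM in beta, transdifferentiated and delta cells.

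Syt7, the high-affinity calcium sensor of insulin and glucagon release, was at 50.01 and 69.8 RPKM in beta, 68.7 and 76.6 RPKM in transdifferentiated and 75.5 and 79.0 RPKM in delta libraries. It passed in no comparison (adjusted p = 0.091, 0.79 and 0.18), but was lower in beta than in delta cells in the blocked fit (-0.38, adjusted p = 0.040) and when beta replicate 2 was left out (-0.62, adjusted p = 0.0062), where transdifferentiated against beta also passed (0.53, adjusted p = 0.012). Syt5, found on dense-core granules, was at 59.3 and 71.0 RPKM in beta, 56.6 and 71.4 RPKM in transdifferentiated and 80.8 and 94.4 RPKM in delta libraries. In each population the female library was the higher one. Without the block Syt5 passed in no comparison (adjusted p = 0.059, 0.13 and 0.89), and with it Syt5 was lower than in delta cells both in beta (-0.42, adjusted p = 0.011) and in transdifferentiated cells (-0.45, adjusted p = 0.030). Without beta replicate 2 the beta to delta difference was -0.55 (adjusted p = 0.044), and after scaling it was 0.05. Transdifferentiated against beta was then -0.50 (adjusted p = 0.040).

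Syt4, a granule synaptotagmin whose first C2 domain lacks calcium binding (chromosome 18, 31437808 to 31447406, minus strand), was at 66.3 and 68.7 RPKM in beta, 82.4 and 64.6 RPKM in transdifferentiated and 32.5 and 34.8 RPKM in delta libraries. The beta values lay inside the spread of the transdifferentiated pair, and all 4 lay above delta cells. Syt4 was higher than in delta cells by 0.98 in beta (SE 0.14, adjusted p = 0.0012) and by 1.10 in transdifferentiated cells (SE 0.14, adjusted p = 0.0045). Transdifferentiated against beta gave 0.11 (SE 0.14, adjusted p = 0.52, 95% interval -0.22 to 0.44) and -0.36 after scaling (adjusted p = 0.061). Of its exon bases, 14.5% also belong to another gene, and how reads there were counted is not given. Such overlaps were 17.2% for Syt12, 8.995% for Rab3b, 8.67% for Syt6, 5.53% for Doc2b, 5.25% for Stx4a, 5.13% for Syt7 and 4.45% for Ptprn. They were 3.92% or less for the other genes.

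Syt1, Syt9 and Syt6 were lowest in beta and highest in delta cells. Syt1, the main sensor of fast synaptic release (chromosome 10, 108497650 to 109010982, minus strand), was at 0.111 and 0.129 RPKM in beta, 4.77 and 2.68 RPKM in transdifferentiated and 14.3 and 12.1 RPKM in delta libraries. The populations did not overlap, and the beta values rest on 20 and 22 reads against 2023 and 1582 in delta cells. The transdifferentiated mean of 3.73 ± 1.47 RPKM was 31.0 times the beta mean and 0.282 times the delta mean. The log2 fold change was -3.66 for beta against delta (SE 0.22, adjusted p = 4.27e-05), 2.04 for transdifferentiated against beta (SE 0.22, adjusted p = 6.75e-04) and -1.62 for transdifferentiated against delta (SE 0.22, adjusted p = 0.0055). With a pseudocount of 0.1 these were -5.91, 4.06 and -1.85. Syt1 is also a neuronal gene, and the glial marker Sox10 and the neuronal marker Dbh were at 0.0676 RPKM or less in every library.

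Syt9, which replaces or joins Syt1 in fast release and is found in beta cells, was at 4.61 and 6.27 RPKM in beta, 9.77 and 9.27 RPKM in transdifferentiated and 14.9 and 17.9 RPKM in delta libraries. Beta cells were below delta cells (-1.44, SE 0.16, adjusted p = 4.77e-04), higher in transdifferentiated than in beta cells (0.72, SE 0.16, adjusted p = 0.0099) and lower in transdifferentiated than in delta cells (-0.72, SE 0.16, adjusted p = 0.031). The second was lost after scaling (0.31, adjusted p = 0.11) and without transdifferentiated replicate 1 (0.064), and the third with no filter (0.090), and on leaving out transdifferentiated replicate 1 or 2 (0.13 and 0.16) or delta replicate 1 or 2 (0.079 and 0.23). Syt6 (chromosome 3, 103575231 to 103645569, plus strand) was listed at 0 and at 0.00839 RPKM in beta, the second a single read, at 0.972 and 1.45 RPKM in transdifferentiated and at 2.96 and 3.31 RPKM in delta libraries. The log2(RPKM + 1) difference was -2.04 for beta against delta (SE 0.15, adjusted p = 1.06e-04), 1.13 for transdifferentiated against beta (SE 0.15, adjusted p = 0.0016) and -0.91 for transdifferentiated against delta (SE 0.15, adjusted p = 0.012). With beta cells at this floor the first and second sizes depend on the pseudocount (-4.96 and 3.63 with 0.1). The third was lost leaving out transdifferentiated replicate 1 (adjusted p = 0.055), on leaving out delta replicate 2 (0.074) and with a pseudocount of 0.1 (0.054).

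Syt16, Syt17 and Syt14 also differed between beta and delta cells. Syt16, a member without calcium binding, was at 0.446 and 0.343 RPKM in beta, 2.77 and 1.97 RPKM in transdifferentiated and 3.33 and 2.90 RPKM in delta libraries, lower in beta than in delta cells (-1.56, SE 0.16, adjusted p = 3.43e-04) and higher in transdifferentiated than in beta cells (1.26, SE 0.16, adjusted p = 0.0012). Syt17 was at 0.254 and 0.169 RPKM in beta, 0.898 and 1.06 RPKM in transdifferentiated and 1.97 and 1.84 RPKM in delta libraries. It was lower in beta than in delta cells (-1.26, SE 0.13, adjusted p = 4.03e-04) and higher in transdifferentiated than in beta cells (0.71, SE 0.13, adjusted p = 0.0054). Its difference of -0.56 from delta cells (adjusted p = 0.041) was lost under every alternative except the pool block (adjusted p = 0.0498), with adjusted p between 0.052 and 0.15. Syt14, another atypical member, was at 5.83 and 9.46 RPKM in beta, 13.3 and 13.6 RPKM in transdifferentiated and 12.0 and 11.2 RPKM in delta libraries. Its transdifferentiated libraries were above all others, but after scaling the calls against beta in delta (adjusted p = 0.041) and transdifferentiated cells (0.016) were gone (0.48 and 0.12), as with no filter (0.10 and 0.054). Without either transdifferentiated replicate both Syt14 calls were lost (adjusted p between 0.074 and 0.078), and the first also without beta replicate 1 (0.064) and delta replicate 1 or 2 (0.16 and 0.11). Syt11, a vesicle-trafficking synaptotagmin without calcium binding, was at 13.3 to 13.9 RPKM in beta, 15.0 to 17.8 RPKM in transdifferentiated and 16.8 to 17.7 RPKM in delta libraries and passed only with the block, in beta against delta cells (-0.32, adjusted p = 0.043).

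Syt3, a plasma-membrane calcium sensor, went the other way, at 4.00029 and 5.13 RPKM in beta, 2.23 and 3.06 RPKM in transdifferentiated and 1.95 and 2.45 RPKM in delta libraries. It was higher in beta than in delta cells by 0.79 (SE 0.17, adjusted p = 0.0079, and 0.058 without delta replicate 1) and lower in transdifferentiated than in beta cells, at -0.61 (SE 0.17, adjusted p = 0.025). The second was lost without beta replicate 2 (adjusted p = 0.10), without transdifferentiated replicate 1 (0.14) and with no filter (0.075). Syt2, the close relative of Syt1, stayed between 2.72 and 3.31 RPKM in all 6 libraries, with log2 fold changes of -0.01, -0.01 and -0.0012 (95% intervals within -0.33 to 0.32). After scaling it was higher in beta than in delta cells (0.35, adjusted p = 0.046) and lower in transdifferentiated than in beta cells (-0.36, adjusted p = 0.044).

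**Figure D3:**
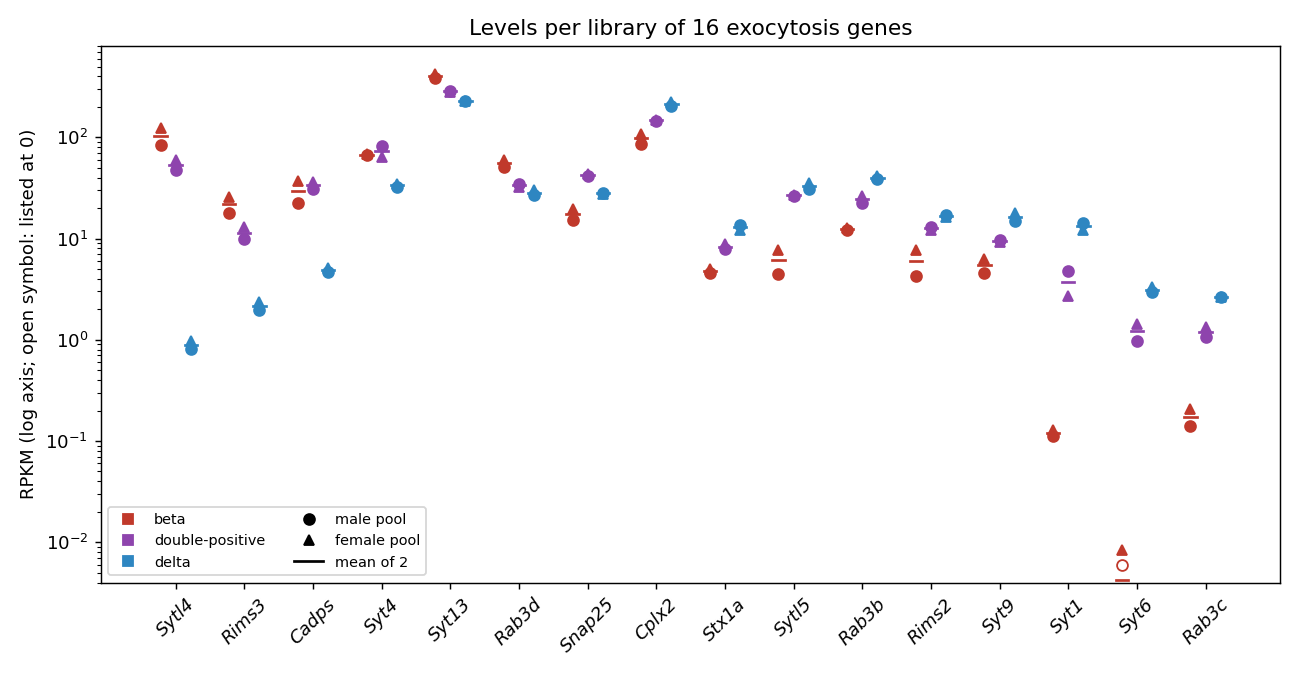
RPKM (log axis) of 16 exocytosis genes in each library; colour gives the population (transdifferentiated cells are marked double-positive), circles the male and triangles the female pool, and short lines the mean of the 2 libraries. From Sytl4 to Rab3d the beta libraries lie above the delta ones; from Snap25 on they lie below, and Snap25 is highest in transdifferentiated cells, at 41.2 and 43.7 RPKM.

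All 6 syntaxin and SNAP genes, the plasma-membrane SNAREs, were higher in transdifferentiated than in beta cells, where 42.5% of all genes tested were. Of the 6, 5 (Snap23 excepted) were lower in beta than in delta cells, where 46.3% of all genes were. After scaling Snap25 alone passed in the first comparison, and in the second Stx1a and Stx2 passed as lower and Snap23 as higher in beta cells. Snap25, the SNAP protein of neurons and endocrine cells (chromosome 2, 136713453 to 136782428, plus strand), was at 15.2 and 19.6 RPKM in beta, 41.2 and 43.7 RPKM in transdifferentiated and 28.4 and 27.8 RPKM in delta libraries. The transdifferentiated libraries were the highest of all. The log2 fold change was 1.25 against beta (SE 0.14, adjusted p = 7.70e-04) and 0.57 against delta cells (SE 0.14, adjusted p = 0.041), with means of 42.4 ± 1.77, 17.4 ± 3.11 and 28.1 ± 0.414 RPKM. The call against beta cells held under all 10 alternatives, with values from 0.79 to 1.42. The value against delta cells stayed between 0.53 and 0.62, with adjusted p of 0.14 and 0.19 without transdifferentiated replicate 1 or 2, 0.17 and 0.23 without delta replicate 1 or 2, 0.052 with a pseudocount of 0.1 and 0.092 with no filter. Beta against delta gave -0.67 (SE 0.14, adjusted p = 0.0059), and -0.21 after scaling (adjusted p = 0.16). The ratio of Snap25 to the granule SNARE Vamp2 was 0.246 and 0.285 in beta, 0.657 and 0.670 in transdifferentiated and 0.372 and 0.357 in delta libraries. Against its paralogue Snap23 the transdifferentiated and delta libraries lay close, at 3.55 and 3.80 and at 3.23 and 3.52, with 2.20 and 2.14 in beta. Against Stx1a the ratio was 3.30 and 3.95 in beta, 5.19 and 4.995 in transdifferentiated and 2.09 and 2.27 in delta libraries.

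Stx1a, the syntaxin that pairs with SNAP-25 in insulin release (chromosome 5, 135023482 to 135051100, plus strand), was at 4.61 and 4.97 RPKM in beta, 7.93 and 8.74 RPKM in transdifferentiated and 13.6 and 12.2 RPKM in delta libraries. The populations were ordered without overlap, at -1.27 for beta against delta (SE 0.12, adjusted p = 2.28e-04), 0.69 for transdifferentiated against beta (SE 0.12, adjusted p = 0.0034, and 0.28 with adjusted p = 0.061 after scaling) and -0.58 for transdifferentiated against delta (SE 0.12, adjusted p = 0.023). The last was lost without transdifferentiated replicate 1 or 2 (adjusted p = 0.14 and 0.087) or delta replicate 1 or 2 (0.17 and 0.11). Stx4a and Stx3, syntaxins of newcomer granules and of granule-to-granule fusion, were the more abundant per length. Stx4a was at 16.3 to 17.4 RPKM in beta, 24.3 to 24.9 RPKM in transdifferentiated and 27.1 to 28.3 RPKM in delta libraries, and Stx3 at 14.7 to 16.4, 20.1 to 21.6 and 18.9 to 20.3 RPKM. After scaling the Stx4a differences from beta cells shrank from -0.68 to -0.22 (delta as reference, adjusted p = 0.12) and from 0.52 to 0.06 (adjusted p = 0.64). Those of Stx3 changed sign, from -0.32 to 0.14 and from 0.40 to -0.05.

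The remaining calls of this group were small. The Stx3 call in beta against delta cells (adjusted p = 0.048) was lost in the blocked fit (0.055), with no filter (0.056), and without any 1 library other than beta replicate 2 (0.075 to 0.26). In transdifferentiated against beta cells (0.024) it was lost without any 1 library other than beta replicate 2 (0.051 to 0.12). Stx2 was at 2.36 to 2.45 RPKM in beta, 3.51 to 3.90 RPKM in transdifferentiated and 4.46 to 4.53 RPKM in delta libraries, lower in beta than in delta cells (-0.69, SE 0.11, adjusted p = 0.0023). Its value of 0.47 in transdifferentiated against beta cells (adjusted p = 0.014) was 0.11 after scaling (0.41) and missed the threshold without transdifferentiated replicate 2 (0.074). Snap23, the broadly expressed SNAP protein, was at 6.92 and 9.17 RPKM in beta, 11.6 and 11.5 RPKM in transdifferentiated and 8.81 and 7.92 RPKM in delta libraries. Its call in transdifferentiated against beta cells (0.48, adjusted p = 0.031) was lost with no filter (0.068), after scaling (0.05, adjusted p = 0.72) and without any 1 library other than beta replicate 2 (0.060 to 0.12). Against delta cells Snap23 passed only without beta replicate 1 or 2 (0.42, adjusted p = 0.035 and 0.036), and beta against delta turned from -0.06 to 0.37 after scaling (adjusted p = 0.033).

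Of the 4 granule-side SNARE genes only Vamp1 differed in the fit without block or scaling. Vamp2, the VAMP of insulin granules, was at 61.8 and 68.8 RPKM in beta, 62.7 and 65.2 RPKM in transdifferentiated and 76.3 and 78.0 RPKM in delta libraries, with adjusted p of 0.091, 0.17 and 0.84. It passed in beta against delta cells without beta replicate 2 (-0.32, adjusted p = 0.026), and transdifferentiated against beta went from -0.03 to -0.50 after scaling (adjusted p = 0.0079). Vamp3 (cellubrevin) was at 27.4 to 29.9, 25.0 to 26.6 and 23.5 to 23.8 RPKM and did not pass, except after scaling, where it was higher in beta than in delta cells (0.73, adjusted p = 0.0015) and lower in transdifferentiated than in beta cells (-0.60, adjusted p = 0.0039), and in beta against delta cells without beta replicate 1 (0.32, adjusted p = 0.033). Vamp1 differed more: it was at 1.05 and 1.55 RPKM in beta, 3.81 and 3.24 RPKM in transdifferentiated and 3.95 and 3.68 RPKM in delta libraries. Vamp1 was lower in beta than in delta cells (-1.07, SE 0.15, adjusted p = 0.0012) and higher in transdifferentiated than in beta cells (0.98, SE 0.15, adjusted p = 0.0025). Transdifferentiated against delta gave -0.09 (SE 0.15, adjusted p = 0.75, 95% interval -0.45 to 0.27).

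Vamp8, a VAMP of exocrine, immune and endocrine granules, was at 44.5 and 32.3 RPKM in beta, 32.5 and 23.5 RPKM in transdifferentiated and 29.0 and 27.8 RPKM in delta libraries. The male library was the higher one in each population, as were the summed acinar markers (7171 and 272 RPKM in beta, 1855 and 135 RPKM in transdifferentiated, 637 and 487 RPKM in delta libraries); their part in the Vamp8 values was not tested. It passed in no comparison (adjusted p = 0.12, 0.94 and 0.11). In the blocked fit it was higher in beta than in delta cells (0.41, adjusted p = 0.036) and lower in transdifferentiated than in beta cells (-0.44, adjusted p = 0.030). It also passed in these 2 comparisons after scaling (0.87 and -0.91, adjusted p = 0.014 and 0.014) and when beta replicate 2 was left out (0.63 and -0.67, adjusted p = 0.040 and 0.037).

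The Munc18 proteins chaperone syntaxins. Stxbp3 (Munc18-3), the partner of syntaxin 4, was at 4.71 and 6.34 RPKM in beta, 10.0 and 8.85 RPKM in transdifferentiated and 9.07 and 8.15 RPKM in delta libraries. It was lower in beta than in delta cells (-0.57, SE 0.15, adjusted p = 0.018) and higher in transdifferentiated than in beta cells (0.69, SE 0.15, adjusted p = 0.010). After scaling neither held (adjusted p = 0.33 and 0.10). The first was also lost without beta replicate 1 (0.051) and delta replicate 1 or 2 (0.11 and 0.056), and the second without transdifferentiated replicate 1 (0.072). Stxbp2 (Munc18-2) stayed between 20.1 and 24.9 RPKM and passed in no comparison (adjusted p = 0.71, 0.37 and 0.13), except after scaling in beta against delta cells, where the value turned from -0.05 to 0.41 (adjusted p = 0.018).

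Rab3 proteins, the GTPases of docked granules, changed in make-up between populations. Rab3b (chromosome 4, 108879063 to 108943324, plus strand) was at 12.2 and 12.7 RPKM in beta, 22.6 and 26.5 RPKM in transdifferentiated and 38.5 and 41.6 RPKM in delta libraries. The order had no overlap, at -1.61 for beta against delta (SE 0.12, adjusted p = 1.00e-04), 0.92 for transdifferentiated against beta (SE 0.12, adjusted p = 0.0013) and -0.69 for transdifferentiated against delta (SE 0.12, adjusted p = 0.013). The last was lost without transdifferentiated replicate 1 (0.085) and delta replicate 1 or 2 (0.071 and 0.13). Rab3c followed the same order at a lower level, with 0.142 and 0.207 RPKM in beta, 1.06 and 1.35 RPKM in transdifferentiated and 2.64 and 2.66 RPKM in delta libraries. Its log2 fold changes were -1.64 (SE 0.14, adjusted p = 1.49e-04), 0.91 (SE 0.14, adjusted p = 0.0023) and -0.73 (SE 0.14, adjusted p = 0.017) in the same 3 comparisons. The last was lost with a pseudocount of 0.1 (adjusted p = 0.060), and on leaving out transdifferentiated replicate 1 (0.080) or delta replicate 1 or 2 (0.072 and 0.088).

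Rab3d and Rab3a were the leading Rab3 genes of beta cells. Rab3d (chromosome 9, 21907491 to 21918192, minus strand) was at 50.4 and 59.99 RPKM in beta, 34.6 and 32.6 RPKM in transdifferentiated and 26.9 and 29.9 RPKM in delta libraries. It was higher in beta than in delta cells by 0.93 (SE 0.13, adjusted p = 0.0011) and lower in transdifferentiated than in beta cells, at -0.69 (SE 0.13, adjusted p = 0.0047). The value of 0.24 against delta cells did not pass (adjusted p = 0.29, 95% interval -0.06 to 0.54). Rab3a, the main neuronal Rab3, was at 38.2 and 42.3 RPKM in beta, 24.6 and 30.2 RPKM in transdifferentiated and 28.2 and 33.2 RPKM in delta libraries. It was lower in transdifferentiated than in beta cells (-0.54, SE 0.14, adjusted p = 0.019), with adjusted p of 0.061 without beta replicate 2 and 0.12 without transdifferentiated replicate 1. Beta against delta gave 0.38 (adjusted p = 0.057); it was past the threshold in the blocked fit (0.019) and after scaling (0.85, adjusted p = 0.0038). Rab3b made up 11.6 ± 0.709%, 28.2 ± 1.35% and 39.4 ± 0.918% of the summed Rab3 RPKM in beta, transdifferentiated and delta cells, and Rab3d 51.0 ± 1.49%, 38.9 ± 4.07% and 27.9 ± 0.0503%.

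Rab27a, the GTPase that granuphilins bind, was at 54.5 and 67.5 RPKM in beta, 69.8 and 65.5 RPKM in transdifferentiated and 73.6 and 73.4 RPKM in delta libraries. It passed in no comparison (adjusted p = 0.11, 0.62 and 0.35), except without beta replicate 2 (-0.42 for beta against delta, adjusted p = 0.012, and 0.30 for transdifferentiated against beta, adjusted p = 0.036), and after scaling, where transdifferentiated against beta turned to -0.32 (adjusted p = 0.045). The ratio of Sytl4 to Rab27a was 1.55 and 1.82 in beta, 0.682 and 0.917 in transdifferentiated and 0.0109 and 0.0134 in delta libraries. Rph3al (Noc2), an effector of Rab3 and Rab27 needed for endocrine granule release, was at 46.3 and 47.4 RPKM in beta, 58.3 and 47.7 RPKM in transdifferentiated and 67.9 and 57.8 RPKM in delta libraries. Its call in beta against delta cells (-0.41, SE 0.14, adjusted p = 0.040) turned to 0.06 after scaling (0.70), and was lost with no filter (0.077), without beta replicate 1 or 2 (0.096 and 0.073) and without delta replicate 1 or 2 (0.25 and 0.062).

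Cplx2, the complexin of these cells, was at 86.4 and 109 RPKM in beta, 147 and 149 RPKM in transdifferentiated and 202 and 222 RPKM in delta libraries (chromosome 13, 54371349 to 54383917, plus strand). The order had no overlap. Cplx2 was lower in beta than in delta cells (-1.12, SE 0.14, adjusted p = 7.16e-04, and -0.64 after scaling, adjusted p = 0.00587) and higher in transdifferentiated than in beta cells (0.61, SE 0.14, adjusted p = 0.011). The second was 0.13 after scaling (adjusted p = 0.40) and missed the threshold without transdifferentiated replicate 1 or 2 (0.057 and 0.058). Transdifferentiated against delta gave -0.51 (adjusted p = 0.058), which the blocked fit brought past the threshold (0.030) and without beta replicate 1 or 2 (0.017 and 0.019). Cplx2 made up between 99.4% and 99.9% of the summed complexin RPKM in all 6 libraries.

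The granule membrane proteins Ptprn (IA-2) and Ptprn2 (IA-2 beta, phogrin), receptor-type phosphatase homologues that mark dense-core granules, were high throughout. Ptprn (chromosome 1, 75247027 to 75264502, minus strand) was at 356 and 414 RPKM in beta, 312 and 346 RPKM in transdifferentiated and 417 and 441 RPKM in delta libraries, and passed in no comparison (adjusted p = 0.30, 0.10 and 0.17). The transdifferentiated libraries were the lowest 2 of the 6. Transdifferentiated against beta was -0.22, and -0.70 after scaling (adjusted p = 0.0056), and transdifferentiated against delta was -0.38, with an adjusted p of 0.0475 without beta replicate 1. Ptprn2 was at 52.4 and 94.8 RPKM in beta, 77.2 and 87.1 RPKM in transdifferentiated and 99.3 and 111 RPKM in delta libraries. The male beta library lay apart from its female partner. Ptprn2 passed in no comparison (adjusted p = 0.10, 0.45 and 0.51), except in beta against delta cells in the blocked fit (-0.56, adjusted p = 0.032) and when beta replicate 2 was left out (-0.99, adjusted p = 0.0023), where transdifferentiated against beta also passed (0.64, adjusted p = 0.011).

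**Figure D4:**
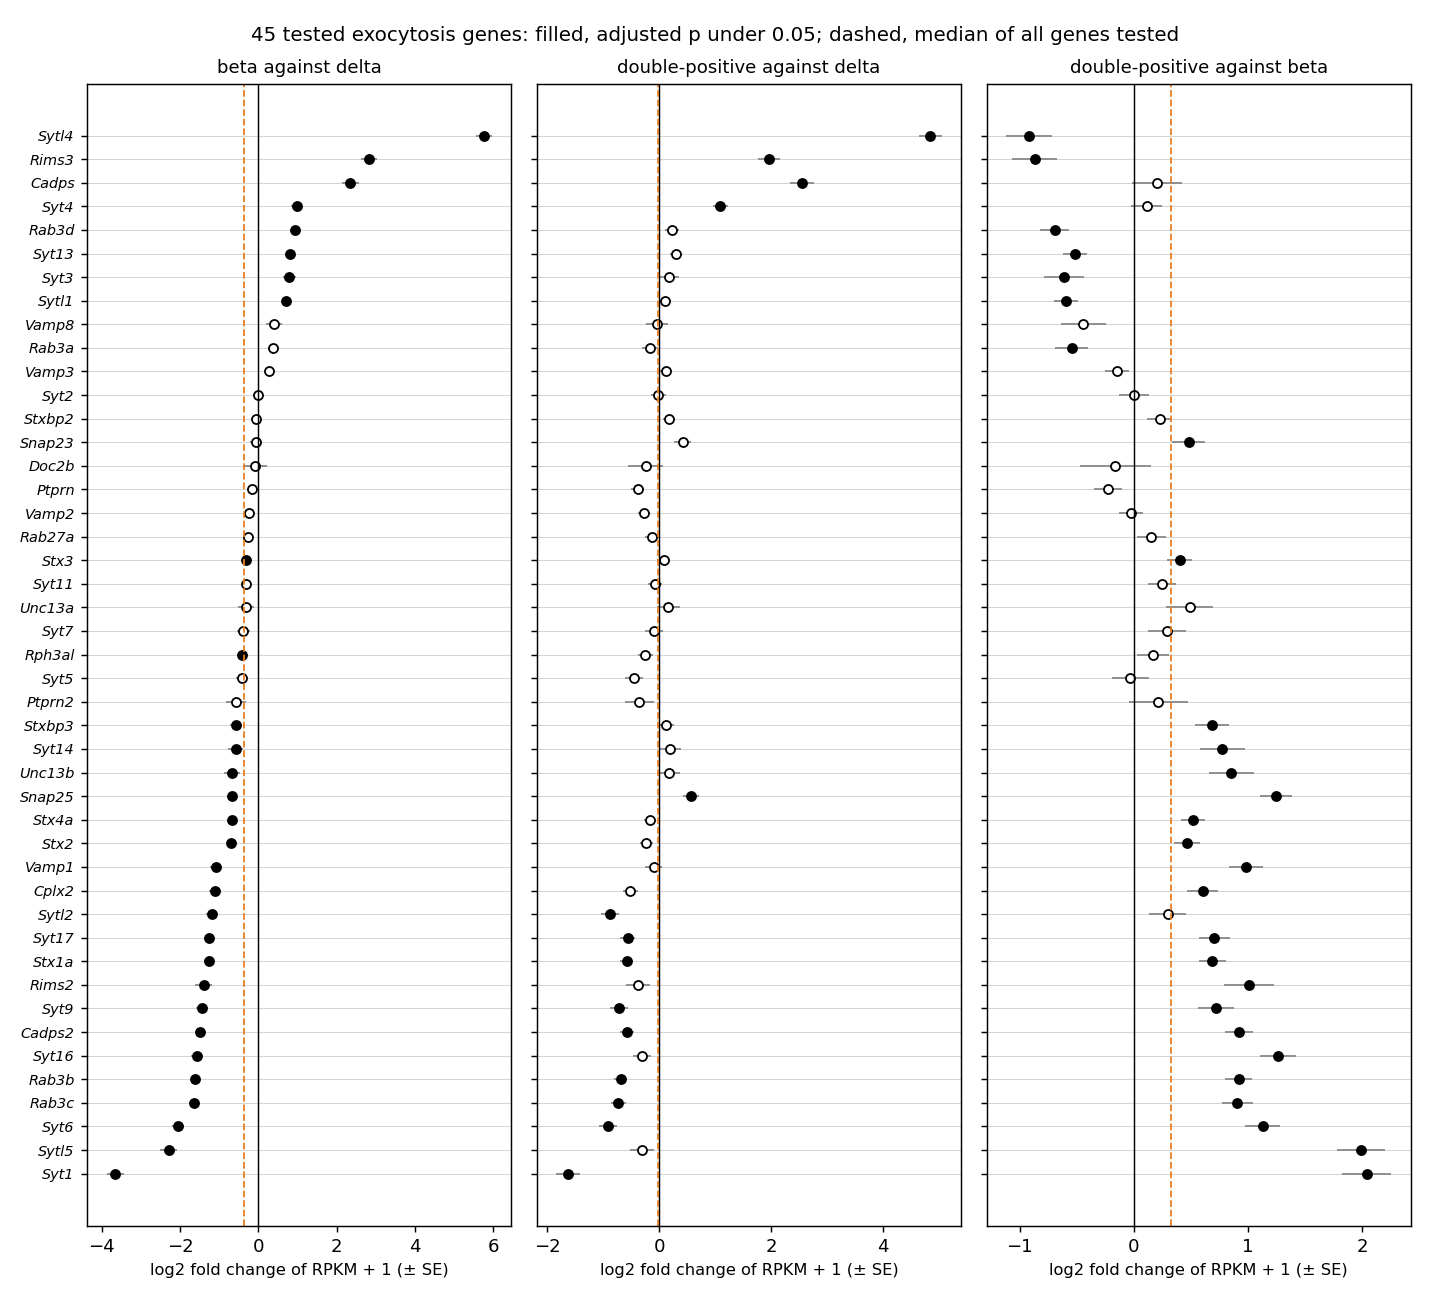
Log2 fold change of RPKM + 1 with its SE (bars) for the 45 tested exocytosis genes in the 3 comparisons, ordered by beta against delta; filled points passed at an adjusted p under 0.05 and the dashed line is the median over all 13022 genes tested. Sytl4, Cadps, Rims3 and Syt4 stand to the right in the first and second panels, where they are higher than in delta cells, and the third panel, whose axis is shorter, runs from Sytl4 at -0.92 to Syt1 at 2.04.

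Of the 10 genes below the filter, Syt8 was listed at 0 in every library, where 3 reads would be 0.0734 to 0.145 RPKM. Syt10 had a single read, in the female beta library. Rab27b, the second Rab27, was at 0.0549 to 0.0825 RPKM in beta, 0.378 to 0.426 RPKM in transdifferentiated and 0.538 to 0.684 RPKM in delta libraries. Rims1, the main brain RIM, was at 0.00655 to 0.0276, 0.155 to 0.169 and 0.433 to 0.450 RPKM. Rab27b and Rims1 rose in the order beta, transdifferentiated, delta without overlap. Syt12 fell in that order without overlap, at 0.185 to 0.209 RPKM in beta, 0.158 to 0.166 RPKM in transdifferentiated and 0.0230 to 0.117 RPKM in delta libraries. These genes were not tested, and the share of all genes ordered in such ways was not worked out. Sytl3 stayed between 0.395 and 0.932 RPKM, and Cplx3 between 0.0972 and 0.656 RPKM. Syt12, Rims4, Rph3a and Cplx1 were at 0.209 RPKM or less in every library, the last on 4 reads or fewer.

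In 5 of the 45 tested genes (Snap25, Snap23, Stxbp2, Syt14 and Unc13b) both transdifferentiated libraries lay above all 4 other libraries, where 16% of all genes tested did so. In 1, Ptprn, both lay below, against 5.9% of all genes. After scaling 4 lay above (Snap25, Stxbp3, Syt14 and Unc13b, against 11% of all genes) and 5 below (Vamp2, Syt5, Rab27a, Rph3al and Ptprn, against 13.7%). Snap25 was the 1 gene of these that was called higher against both beta and delta cells.

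A list of 71 other exocytosis genes (further syntaxins, NSF and SNAP adaptors, active-zone scaffolds, exocyst subunits and others) gave 57 tested genes. Of these 6 were higher and 25 lower in beta than in delta cells, 3 higher and 6 lower in transdifferentiated than in delta cells, and 24 higher and 4 lower in transdifferentiated than in beta cells, with medians of -0.22, -0.04 and 0.35. Over all genes tested these shares were 11.7% and 46.3%, 5.53% and 7.2%, and 42.5% and 8.46%, with medians of -0.36, -0.03 and 0.32. Stxbp5l (tomosyn-2), a brake on SNARE assembly, was at 0.354 and 1.004 RPKM in beta, 20.2 and 17.9 RPKM in transdifferentiated and 40.2 and 37.4 RPKM in delta libraries. Its log2 fold change was -4.59 for beta against delta (SE 0.19, adjusted p = 1.20e-05), 3.60 for transdifferentiated against beta (SE 0.19, adjusted p = 1.23e-04) and -0.99 for transdifferentiated against delta (SE 0.19, adjusted p = 0.020). Baiap3, a Munc13-related protein of dense-core granules, was at 10.8 and 15.2, 51.8 and 62.7, and 96.7 and 109 RPKM in the same libraries, and Ppfia2 (liprin-alpha 2), an active-zone scaffold, at 0.0231 and 0.0792, 2.66 and 2.46, and 6.66 and 5.86 RPKM. Both were lower in beta than in delta cells (-2.91 and -2.79, SE 0.18 and 0.13, adjusted p = 5.18e-05 and 1.50e-05) and higher in transdifferentiated than in beta cells (2.07 and 1.76, adjusted p = 3.77e-04 and 2.30e-04). Mlph (melanophilin, also named Slac2-a), a Rab27 effector that links granules to myosin, was higher in transdifferentiated than in delta cells: 2.90 and 3.53 RPKM against 0.0770 and 0.0476 RPKM, with 5.18 and 7.02 RPKM in beta libraries (1.98, SE 0.16, adjusted p = 0.0011).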

How the data were processed

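RNA-seq of 6 libraries of sorted mouse islet cells was used, 2 for each of 3 populations. The authors deposited RPKM values per gene symbol in 1 table; the submitters' processing notes list STAR 2.5, featureCounts, edgeR 3.14.0 and the build GRCm38.p4. For counting, strand use is not given in the sources. Of 46959 rows, 27 with date-like symbols were left out.

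RPKM values were tested as log2(RPKM + 1) with limma 3.58.1 (R 4.3.3, trend fitted, 2-sided, Benjamini-Hochberg adjustment), in 1 fit over the 3 groups, for the 13022 genes that reached 1 RPKM in 2 libraries or more; fold changes on this scale understate those of low genes. The test was checked on simulated data. With gene lengths from GENCODE M21 (44093 symbols matched), 83.4% to 86.5% of values under 50 reads were whole reads within 0.01 read, which gave the depths; 1 read on 1 kb was worth 0.0464 to 0.0917 RPKM. Alternatives were a pseudocount of 0.1, no filter, median-of-ratios scaling, the pool as a replicate block and leaving out each library. Libraries of 1 pool come from the same islets, per the series text, and their deviations from group means went together across 13022 genes (r = 0.466 for beta and transdifferentiated, 0.244 for beta and delta, 0.361 for transdifferentiated and delta cells).

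The genes and lists were chosen with earlier results of these data known. Every gene is accounted for; those past the threshold in any comparison, and the leading gene of each role, are described in full, and of the 71 other exocytosis genes the 3 with the widest change past the threshold in each comparison are named.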

Additional observations from a re-analysis of the deposited data

How the results depend on the processing

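Of the exocytosis genes that differed, 22 of 30 in beta against delta, 5 of 14 in transdifferentiated against delta and 13 of 28 in transdifferentiated against beta cells passed in the same direction under all 10 alternatives; the 5 are Sytl4, Cadps, Rims3, Syt1 and Syt4. These counts include genes that passed the filter through the populations where they are high, among them Sytl4 and Syt1. The shares of all genes with calls this stable, or with a sign turned by scaling, were not worked out. Median-of-ratios scaling gave 14 genes higher in beta than in delta cells, and 11 higher and 14 lower in transdifferentiated than in beta cells. It turned the sign of 13 of 45 values in beta against delta and 9 in transdifferentiated against beta cells. Those that passed before or after scaling were 5 in beta against delta cells, which went to 0.35 for Syt2, 0.37 for Snap23, 0.41 for Stxbp2, 0.061 for Rph3al and 0.14 for Stx3, and 2 in transdifferentiated against beta cells, which went to -0.32 for Rab27a and -0.0499 for Stx3. A pseudocount of 0.1 left 4 genes lower in transdifferentiated than in delta cells. Leaving out 1 library at a time gave 7 to 9 higher and 17 to 26 lower in beta against delta, 4 to 7 and 1 to 11 in transdifferentiated against delta, and 13 to 25 and 3 to 7 in transdifferentiated against beta cells. Over all genes it gave 5031 to 7823, 522 to 2055 and 4132 to 7086 passing, against 7546, 1657 and 6642. A group left with 1 library is assumed to vary like the others, and fewer samples enter each such fit. With the pool as a replicate block the counts were 10 and 25, 5 and 11, and 22 and 8; the calls it changed are given beside the genes, and it changed no other call. The causes of these changes were not tested. Depth limits the genes with few reads, such as Syt6, Sytl2 and Rims1.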
